A study of Neogale vison with 6 samples.

Results

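Fatty acid synthesis was followed here through the transcripts of 9 enzymes, all 9 of them found among the 24526 genes of the count table. They were taken by gene symbol and comprised ACLY, ACSS2 and ME1, which supply acetyl-CoA and NADPH, ACACA and FASN, which build the chain, SCD and FADS2, which desaturate it, and ELOVL5 and ELOVL6, which elongate it. After cholesterol depletion (CD), 7 of the 9 rose and none fell, with ACLY 4.17-fold and ACSS2, ELOVL6 and FADS2 between 2.23- and 2.27-fold above control. ACACA, the enzyme that commits acetyl-CoA to fatty acid synthesis, and ELOVL5 did not pass the test.

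Cytosolic acetyl-CoA, made from citrate or acetate, is carboxylated to malonyl-CoA, from which fatty acid synthase assembles palmitate at the expense of NADPH. Desaturases and elongases of the endoplasmic reticulum then turn palmitate and dietary fatty acids into the unsaturated and longer chains of membranes, including the surfactant and cell membranes of the lung. Transcription of these enzymes is driven by the sterol regulatory element-binding proteins, which are released for processing when membrane sterol is low and which also drive the mevalonate pathway, the route to cholesterol.

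Bulk polyadenylated RNA of Mv1Lu, an epithelial cell line from mink lung (Neogale vison), was sequenced in 3 control and 3 CD libraries. The control cells were labelled untreated, and the CD cells were kept for 16 h in medium with 10% lipoprotein-deficient serum, 50 μM lovastatin, a statin that inhibits HMG-CoA reductase, and 50 μM mevalonate, the product of that enzyme. The labels do not give the serum of the control cells, so statin, mevalonate and serum cannot be told apart. Nor do they say whether the replicates were separate cultures, so that p-values measure the spread between these libraries, which may be technical.

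Between 13473820 and 18633764 reads per library fell on genes. Reads that mapped nowhere made up 18.4, 13.6 and 4.25% of control libraries 1, 2 and 3 and 3.54, 4.33 and 9.37% of CD libraries 1, 2 and 3. Levels are given in CPM, the reads of a gene per 1000000 reads on genes after scaling by edgeR's trimmed mean of M values (TMM), and log2 fold changes (log2FC, CD over control, with standard error, SE) with a Benjamini-Hochberg adjusted p (FDR) come from edgeR's quasi-likelihood test over the 12148 genes with enough reads. A gene called higher or lower had an FDR below 0.05. The median log2FC of all tested genes was 0.06.

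The 7 members called higher and 0 called lower stood against 24.8% of all tested genes called higher and 22.9% called lower. At least 2-fold higher and called were 4 members, against 10.6% of tested genes. All 3 CD libraries lay above all 3 controls for 7 members and below them for 0, which held for 29.5% and 28.6% of tested genes respectively. The median log2FC of the 9 members was 0.92. With 3 libraries a group, an exact two-sided permutation test of a single gene cannot go below p = 0.1, and the 7 members called higher each gave p = 0.1. In bulk RNA, a larger share of expressing cells and more RNA per cell cannot be told apart.

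**Figure D1:**
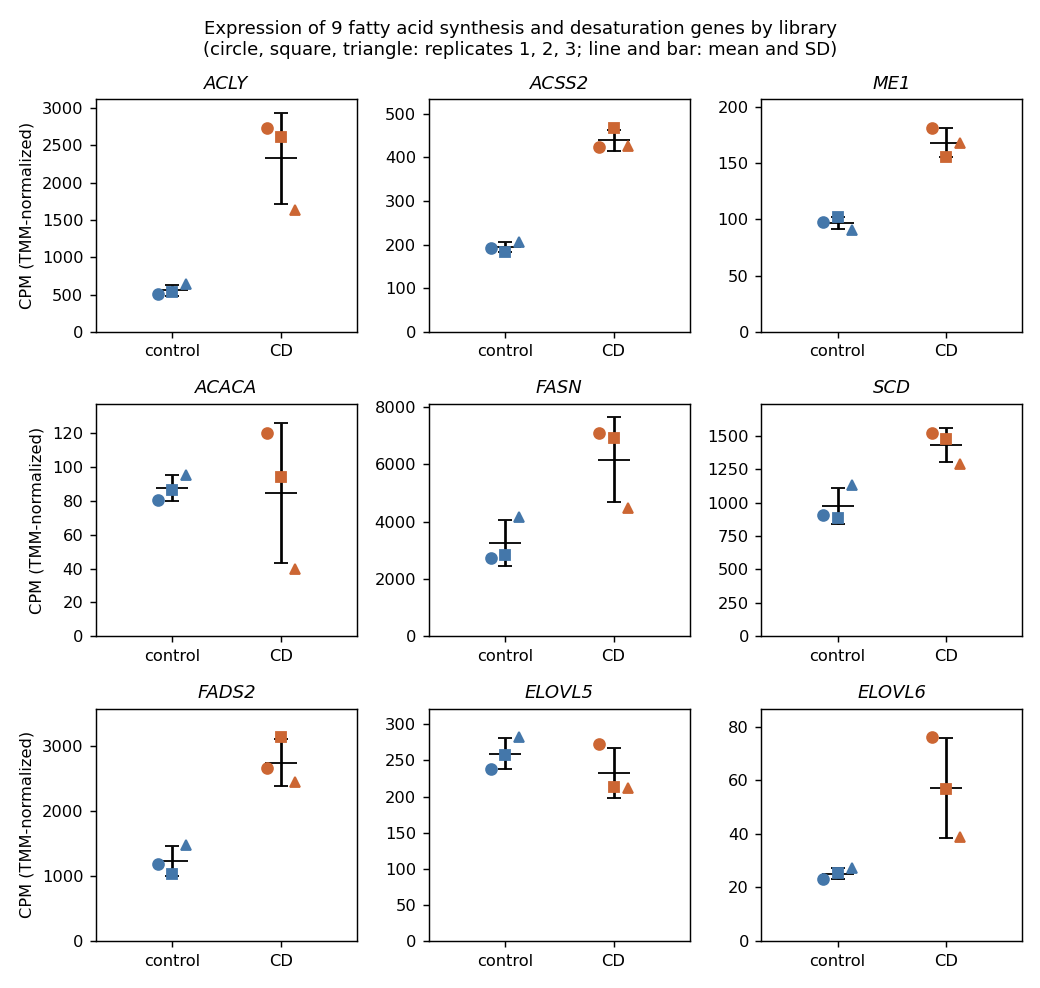
CPM of each of the 9 enzymes in the 3 control and 3 CD libraries, 1 panel per gene, with a circle, square and triangle for replicates 1, 2 and 3, a line for the group mean and a bar for the SD. For 7 enzymes all CD points lie above all control points, while the groups overlap for ACACA and ELOVL5.

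ATP citrate lyase (ACLY, ENSNVIG00000011741), which cleaves exported citrate into cytosolic acetyl-CoA and oxaloacetate, had the largest change of the 9. Its level was 503, 529 and 640 CPM in control libraries 1, 2 and 3 and 2731, 2614 and 1626 CPM in CD libraries 1, 2 and 3. The groups were far apart, though CD library 3 stood well below the other two. The mean rose from 557 ± 72.8 to 2324 ± 607 CPM (SD, n = 3 each), with a log2FC of 2.06 (SE 0.20, 95% confidence interval 1.60 to 2.52, edgeR FDR 3.07e-05).

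ACSS2 (ENSNVIG00000017287), the synthetase that makes acetyl-CoA from acetate, gave 192, 183 and 206 CPM in the controls and 424, 468 and 426 CPM under CD. Both groups were tight and did not overlap. The mean rose from 194 ± 11.6 to 439 ± 24.6 CPM (SD, n = 3 each; log2FC 1.18, SE 0.11, edgeR FDR 2.00e-05), and on the log2 scale no member had a smaller SD among CD libraries.

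Malic enzyme 1 (ME1, ENSNVIG00000004062) oxidises malate to pyruvate in the cytosol and yields NADPH. It stood at 97.6, 102 and 90.6 CPM in the controls and at 181, 155 and 168 CPM under CD, again without overlap. This 1.74-fold rise (log2FC 0.80, SE 0.11, edgeR FDR 2.73e-04) was the only one among the 9 in which control library 3 was not the highest control.

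Acetyl-CoA carboxylase alpha (ACACA, ENSNVIG00000000163) makes malonyl-CoA and is the committed step of the pathway. The controls were close together at 80.7, 86.2 and 95.5 CPM, whereas the CD libraries held 120, 94.3 and 39.6 CPM. CD library 1 lay above every control, CD library 2 among them, and CD library 3 at less than any of the other 5. The mean was 87.5 ± 7.48 CPM in control and 84.7 ± 41.2 CPM under CD (SD, n = 3 each), and the log2FC of -0.04 (SE 0.31, 95% confidence interval -0.74 to 0.65) did not pass (edgeR FDR 0.92, exact permutation p = 0.9). Without CD library 3 the log2FC was 0.26 and ACACA was called higher (edgeR FDR 0.0467); without CD library 1 it was -0.37 and was not called. The interval reaches from a fall to a rise, so these libraries do not set a direction for ACACA. The library with the fewest ACACA reads held 550.

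Fatty acid synthase (FASN, ENSNVIG00000016998) is the multifunctional enzyme that assembles palmitate. Its control libraries gave 2750, 2838 and 4164 CPM and its CD libraries 7108, 6929 and 4465 CPM. CD libraries 1 and 2 were far above the controls, but CD library 3 exceeded control library 3 only narrowly. The mean rose from 3251 ± 793 to 6167 ± 1477 CPM (SD, n = 3 each), 1.90-fold (log2FC 0.92, SE 0.22, 95% confidence interval 0.43 to 1.42, edgeR FDR 0.00662). By number of reads, which also depends on transcript length, FASN ranked 19, 14 and 10 among all genes in control libraries 1, 2 and 3 and 1, 3 and 8 in CD libraries 1, 2 and 3. With the share of unmapped reads as a covariate, the log2FC of FASN was 0.57 and was no longer called (edgeR FDR 0.0531).

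Stearoyl-CoA desaturase (SCD, ENSNVIG00000018947), which places the first double bond into palmitate and stearate, had the smallest rise that was called. It gave 908, 888 and 1131 CPM in the controls and 1524, 1479 and 1287 CPM under CD. The groups came closest between control library 3 and CD library 3. The 1.47-fold rise (log2FC 0.55, SE 0.14, 95% confidence interval 0.24 to 0.86, edgeR FDR 0.00843) missed the threshold without control library 1 (log2FC 0.50, FDR 0.0554) and with the unmapped share as a covariate (log2FC 0.38, FDR 0.0857).

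FADS2 (ENSNVIG00000021440), the desaturase that opens the conversion of linoleate and alpha-linolenate into longer polyunsaturated chains, rose further. Its levels were 1190, 1032 and 1476 CPM in the controls and 2662, 3140 and 2442 CPM under CD. No CD library approached a control. The mean went from 1233 ± 225 to 2748 ± 357 CPM (SD, n = 3 each; log2FC 1.16, SE 0.17, edgeR FDR 3.13e-04). FADS3, a neighbour of FADS2 in the RefSeq mink annotation that was singled out after its values were seen, had a mean of 1652 CPM in control and 1493 CPM under CD and was not called (log2FC -0.15, SE 0.12, edgeR FDR 0.34).

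The elongases differed from each other. ELOVL6 (ENSNVIG00000008824), which extends palmitate to stearate, was at 23.0, 25.2 and 27.3 CPM in the controls and at 76.2, 56.6 and 38.8 CPM under CD. The CD libraries spanned a wide range, all of it above the controls. The mean rose 2.27-fold (log2FC 1.18, SE 0.22, edgeR FDR 0.00153), with a log2FC of 0.93 without CD library 1 and 1.36 without CD library 3. ELOVL5 (ENSNVIG00000008437), which elongates polyunsaturated chains downstream of FADS2, gave 238, 258 and 282 CPM in the controls and 273, 214 and 212 CPM under CD. CD library 1 lay inside the control range and the other CD libraries below it. The log2FC of -0.16 (SE 0.13, 95% confidence interval -0.45 to 0.14) was not called (edgeR FDR 0.35, exact permutation p = 0.3), and the upper bound of its interval is a small rise.

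**Figure D2:**
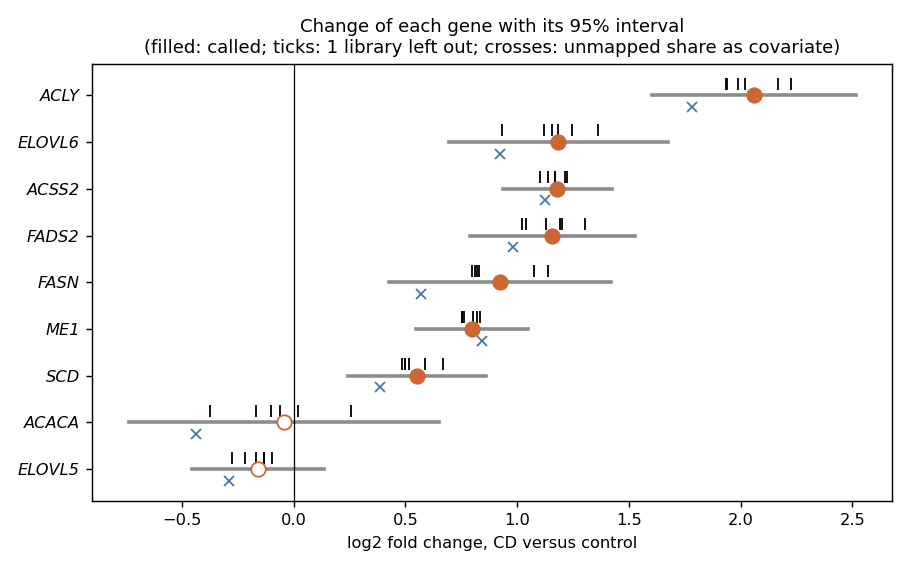
Log2 fold change, CD over control, of the 9 enzymes from edgeR, with circles for the estimates, filled where called, bars for 95% confidence intervals, ticks for fits with 1 library left out and crosses for the fit with the unmapped share as a covariate. The intervals of 7 enzymes lie above 0, from SCD at 0.55 to ACLY at 2.06, and those of ACACA and ELOVL5 span 0.

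The levels of the members differed among the CD libraries. CD library 3 was lower than both other CD libraries for 7 of the 9 members and for 41.0% of tested genes. For 6 of the 9 the order ran from CD library 1 down to CD library 3. How many of all tested genes had that order was not computed. ACACA had the widest difference, with CD library 3 lower than the mean of CD libraries 1 and 2 by a log2 difference of -1.42, a difference below that of all but 0.873% of tested genes. ELOVL6 (-0.75), ACLY (-0.72) and FASN (-0.65) followed, while for ACSS2 (-0.06) and ME1 (0.00) CD library 3 lay near the mean of the other CD libraries. The median of this difference was -0.24 over the members and -0.0016 over all tested genes.

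The SD of log2 CPM over the CD libraries was larger than that over the controls for 6 of the 9 members, and the same held for 76.8% of tested genes. Its median over the members was 0.21 in CD and 0.12 in control, close to the medians of all tested genes, 0.23 and 0.12. The members split widely around that median. The SD of ACACA in CD, 0.84, was at percentile 98.7 of tested genes, those of ELOVL6 (0.48) and ACLY (0.41) at percentiles 88.7 and 83.0, and that of ACSS2 (0.079) at percentile 9.0. FASN stood out among the controls instead, with an SD of 0.33 at percentile 95.8.

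**Figure D3:**
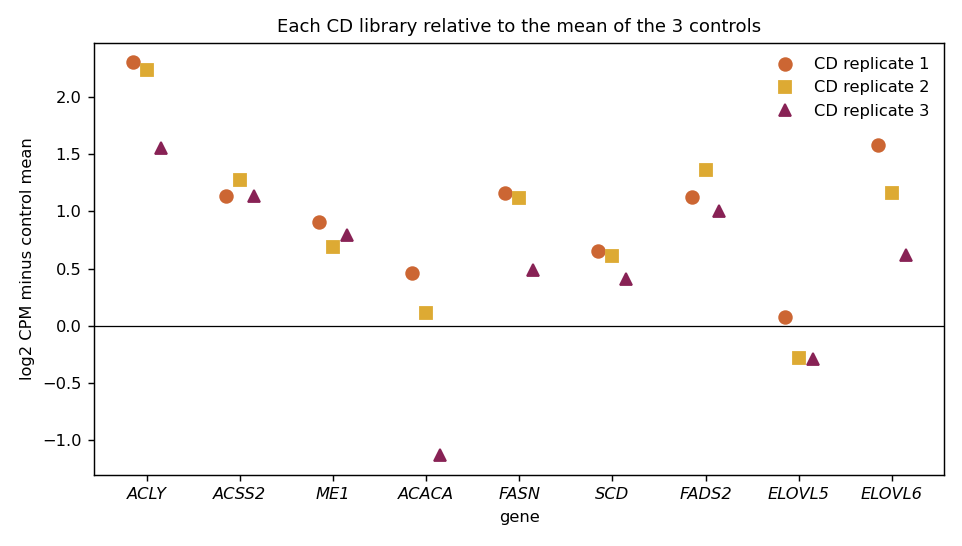
Log2 difference of each CD library from the mean of the 3 controls for the 9 enzymes, 1 point per library. CD library 3 is the lowest point for 7 enzymes and falls to -1.13 for ACACA, while those of ACSS2 and of ME1 are all well above 0.

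The order of the libraries followed the share of unmapped reads for part of the members. Control library 3, with the smallest unmapped share of its group, was the highest control for 8 of the 9 members, all but ME1, and for 39.2% of tested genes. ACLY, ACACA, FASN, ELOVL5 and ELOVL6 had levels in the inverse order of the unmapped share within both groups, an order that 3.95% of tested genes shared. With the unmapped share as a covariate, 5 of the 9 members were called higher and 0 lower: ACLY (log2FC 1.78), ACSS2 (1.13), FADS2 (0.98), ELOVL6 (0.92) and ME1 (0.84). FASN and SCD were no longer called. In the same fit 2261 of the 12148 tested genes were called higher and 2289 lower. Control libraries 1 and 2 had larger unmapped shares than any CD library, so the covariate partly overlaps with CD. A call lost in this fit can therefore also come from lower precision. What the unmapped share reflects was not tested.

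Ratios within a library do not depend on the scaling between libraries, so each enzyme was set against FASN in the same library. ACLY had 183, 186 and 154 reads per 1000 FASN reads in the controls and 384, 377 and 364 under CD. This ratio was thus alike in the 3 CD libraries, CD library 3 included, and 2.16-fold that of the controls (log2 difference 1.11). ACACA had 29.3, 30.4 and 22.9 reads per 1000 FASN reads in the controls and 16.9, 13.6 and 8.87 under CD, a log2 difference of -1.11. ELOVL5 moved the same way, from 86.7, 90.9 and 67.8 to 38.4, 30.8 and 47.4, a log2 difference of -1.08. For these 3 enzymes the groups did not overlap. Each gave the smallest p the exact permutation test allows (p = 0.1, Benjamini-Hochberg adjusted over the 8 ratios 0.267). The share of all tested genes whose ratio to FASN did not overlap between the groups was not computed. Relative to FASN, ACACA and ELOVL5 lay lower in every CD library than in any control. FASN itself was called higher (log2FC 0.92), however, so a gene with an unchanged level also has a lower ratio under CD. These ratios therefore set no direction for the level of ACACA or ELOVL5.

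The other 5 ratios overlapped between the groups. SCD had 330, 313 and 272 reads per 1000 FASN reads in the controls and 214, 213 and 288 under CD (log2 difference -0.36, exact permutation p = 0.2). FADS2 had 433, 364 and 354 in the controls and 374, 453 and 547 under CD (log2 difference 0.24, exact permutation p = 0.2). The log2 differences of ACSS2 (0.26), ELOVL6 (0.21) and ME1 (-0.12) had exact permutation p-values of 0.5, 0.5 and 1. These SCD, FADS2, ACSS2 and ME1 ratios were highest in CD library 3 among the CD libraries, where FASN itself was lowest.

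The 9 enzymes together took 0.589, 0.610 and 0.790% of the reads on genes in the controls and 1.59, 1.51 and 1.03% under CD. All CD libraries were above all controls, with CD library 3 nearest to them. The mean share rose from 0.663 ± 0.110% to 1.38 ± 0.303% (SD, n = 3 each), 2.08-fold (exact permutation p = 0.1, the smallest possible). FASN gave a large part of these reads in either group, 46.0, 47.8 and 51.3% in the controls and 47.1, 45.7 and 41.7% under CD. Without FASN the share of the 8 others was 2.21-fold higher under CD.

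**Figure D4:**
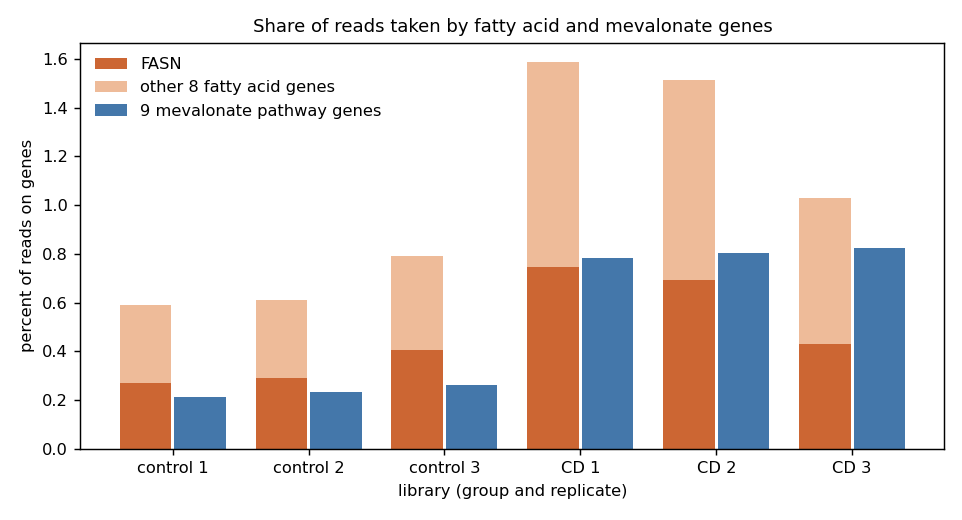
Percent of the reads on genes taken in each library by the 9 fatty acid enzymes and by 9 enzymes of the mevalonate pathway up to squalene, with 1 bar per library for each, and FASN as the dark part of the fatty acid bar. The fatty acid enzymes ranged from 1.03 to 1.59% under CD with CD library 3 lowest, whereas the mevalonate enzymes stayed between 0.782 and 0.823%.

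Other genes of fatty acid metabolism moved in both directions. Of 74 such genes in 6 lists, 63 could be tested, and 19 (30.2%) were called higher and 10 (15.9%) lower, beside 24.8% and 22.9% of all tested genes, with a median log2FC of 0.04. The count of lower genes was 6 without control library 3 and 18 without CD library 3, and that of higher genes was 12 with the unmapped share as a covariate.

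Among 12 further genes of carbon and NADPH supply, 6 were higher and 1 lower (median log2FC 0.23). IDH1, a cytosolic NADPH-producing isocitrate dehydrogenase, rose from 34.6 ± 1.87 to 134 ± 6.22 CPM (SD, n = 3 each; log2FC 1.96, edgeR FDR 1.05e-06). Its CD libraries were nearly equal, unlike those of ACLY. The mitochondrial citrate carrier SLC25A1 (log2FC 0.80) and citrate synthase CS (0.56), the steps ahead of ACLY, rose, as did the acetyl-CoA and short-chain acyl-CoA synthetases ACSS1 (0.66) and ACSS3 (1.48). PGD of the pentose phosphate pathway also passed (log2FC 0.42), and the mitochondrial malic enzyme ME3 fell (log2FC -0.40, edgeR FDR 0.0390). Both calls were lost with the unmapped share as a covariate and without single libraries, PGD without control library 1 (log2FC 0.40), control library 2 (0.35) or CD library 2 (0.32), and ME3 without any 1 control (-0.36 to -0.44) or CD library 1 (-0.28). ME3 was not called with upper-quartile scaling either.

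Of 8 tested genes of other chain synthesis, 1 was higher and 2 lower (median log2FC 0.05). ACACB, the carboxylase isoform whose malonyl-CoA restrains mitochondrial fatty acid import, fell from 3.44 ± 0.299 to 0.505 ± 0.188 CPM (SD, n = 3 each; log2FC -2.73, edgeR FDR 5.70e-05), on 159 reads in the 3 controls together and 24 under CD. AACS, which activates acetoacetate for lipid synthesis, rose (log2FC 0.75), and MECR of the mitochondrial synthesis pathway fell (log2FC -0.53), though not without control library 3 (-0.47, not called).

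The remaining elongation genes counted 1 higher and 3 lower of 9 tested (median log2FC -0.26). HSD17B12, the ketoacyl reductase of the elongation cycle, rose (log2FC 0.83), while ELOVL7 (-0.85), the dehydratase HACD2 (-0.44) and ELOVL3 (-2.80) fell, the latter on 71 reads in control and 10 under CD. HACD2 was not called with the unmapped share as a covariate, nor without control library 1 (log2FC -0.44), control library 3 (-0.38) or CD library 2 (-0.44). Of 7 further desaturation genes, 2 were higher and 1 lower (median log2FC -0.14). The cytochrome b5 reductase CYB5R3, which passes electrons to desaturases, rose (log2FC 1.01, edgeR FDR 1.22e-04), and CYB5B passed narrowly (log2FC 0.33, FDR 0.0367). The CYB5B call was lost with that covariate, without any 1 library other than CD library 1 (log2FC 0.22 to 0.36), and also with DESeq2, DESeq2 size factors in edgeR or no filter on low counts. FADS6 fell from 27.5 ± 3.24 to 11.6 ± 2.45 CPM (SD, n = 3 each; log2FC -1.25).

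Of 10 tested genes of fatty acid activation and uptake, 3 were higher and 2 lower (median log2FC 0.03), shares near the 24.8% and 22.9% of all tested genes. The transporter SLC27A6 (log2FC 2.30) and the long-chain acyl-CoA synthetases ACSL4 (1.12) and ACSL1 (0.56) rose, whereas SLC27A3 (-1.16) and SLC27A4 (-0.35) fell. With the unmapped share as a covariate, ACSL1, ACSL4 and SLC27A4 were not called. Their calls were also lost without single libraries, ACSL4 without control library 3 (log2FC 1.03), ACSL1 without any 1 library other than CD library 3 (0.44 to 0.59), and SLC27A4 without control library 1 (-0.34), control library 3 (-0.27) or CD library 1 (-0.29). The log2FC of ACSL4 was 0.59 without CD library 1 and 1.33 without CD library 3, both called.

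Of 17 tested regulators of lipogenesis, 6 were higher and 1 lower (median log2FC 0.26). SREBF1, which encodes the sterol regulatory element-binding protein best known for driving fatty acid genes, fell. It gave 634, 582 and 785 CPM in the controls and 399, 424 and 372 CPM under CD, without overlap (log2FC -0.74, SE 0.14, edgeR FDR 0.00146). SREBF2, best known for the cholesterol genes, was at 687 ± 90.8 CPM in control and 774 ± 91.4 CPM under CD (SD, n = 3 each) and was not called (log2FC 0.17, FDR 0.34), nor was SCAP, the escort protein of both (log2FC -0.07, FDR 0.64). With limma-voom sample quality weights SREBF2 was called higher (log2FC 0.30, FDR 0.0187). INSIG1, which retains that complex in the endoplasmic reticulum and is itself a sterol-regulated gene, rose from 41.1 ± 4.77 to 131 ± 13.4 CPM (SD, n = 3 each; log2FC 1.67, edgeR FDR 8.48e-06), and INSIG2 rose too (log2FC 0.73), a call lost without control library 1 (0.63) or control library 3 (0.67).

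The liver X receptors NR1H2 (log2FC 0.59) and NR1H3 (0.68) were called higher. So were PRKAG2 (0.63), a subunit of the AMP-activated kinase that inhibits ACACA, and its upstream kinase CAMKK2 (0.70), whose groups overlapped. The other tested subunits, PRKAA1 (0.42), PRKAA2 (-0.17), PRKAB1 (0.04), PRKAB2 (0.80) and PRKAG1 (-0.18), were not called with all 6 libraries. Without CD library 3, PRKAA1 and PRKAB2 were called higher and PRKAG1 lower. NR1H3, PRKAG2 and CAMKK2 were not called with the unmapped share as a covariate. Nor was NR1H3 called without control library 2 (log2FC 0.58) or CD library 2 (0.59), PRKAG2 without control library 1 (0.56), or CAMKK2 without any 1 library other than CD library 3 (0.43 to 0.73). The CAMKK2 call was also lost with limma-voom and with scaling to total counts. MID1IP1, which promotes polymerisation of acetyl-CoA carboxylase, was not called (log2FC 0.26, FDR 0.19). MLXIPL, the carbohydrate-responsive lipogenic factor, and THRSP had 0 reads in all 6 libraries.

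For comparison, 9 genes of the mevalonate pathway up to squalene counted 8 higher and 0 lower, with a median log2FC of 1.61 and 7 at least 2-fold higher. They ran from PMVK (log2FC -0.06, edgeR FDR 0.78) to HMGCS1 (3.43, FDR 4.17e-07). Without CD library 3, PMVK was called lower (log2FC -0.31, edgeR FDR 0.0172). Their summed share of reads rose from 0.236 ± 0.0246% to 0.803 ± 0.0208% (SD, n = 3 each), 3.40-fold, with 0.782, 0.803 and 0.823% in CD libraries 1, 2 and 3. The fall toward CD library 3 seen in the summed share of the fatty acid enzymes was not present there. The difference between both groups of enzymes was not tested.

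**Figure D5:**
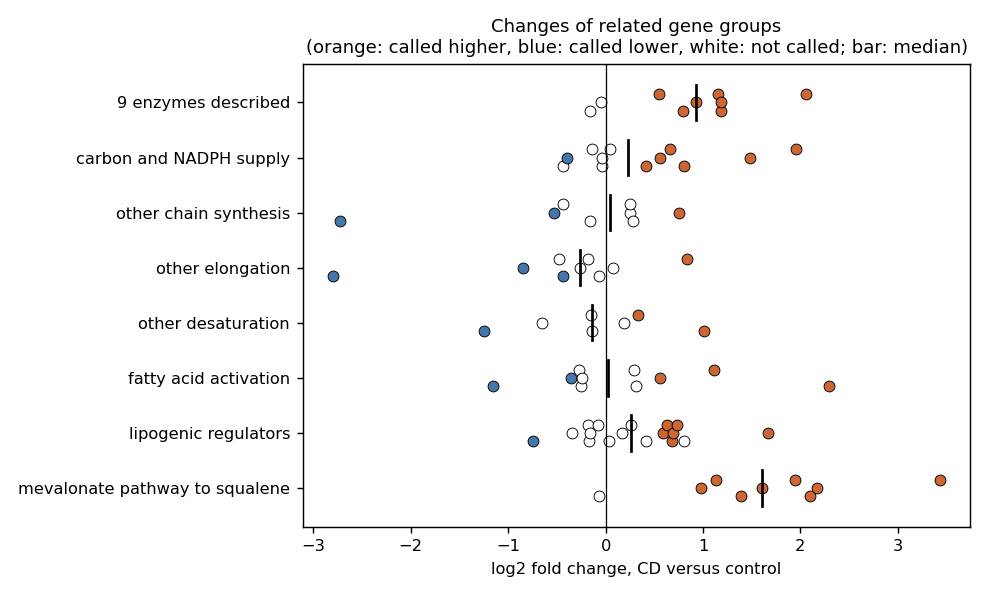
Log2 fold change, CD over control, of every tested gene in the 9 fatty acid enzymes, the 6 lists of related genes and the mevalonate list, with 1 point per gene (orange called higher, blue called lower, white not called) and a bar at the median of each list. Medians are 0.92 for the 9 enzymes and 1.61 for the mevalonate genes, against -0.26 to 0.26 for the 6 lists.

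Marker genes of the labelled cell type and of other cells were read beside these results. Of 7 epithelial markers 5 were found, and KRT19 carried most of their reads, while EPCAM (7 reads over the controls, 2 over the CD libraries) and CDH1 (8 and 18 reads) were near 0. Their summed level was 892 to 1019 CPM in control and 393 to 546 CPM under CD, a fall carried by KRT19 (log2FC -1.03), while CLDN4 rose (3.55) and OCLN was not called (0.06). The 7 mesenchymal markers, mainly VIM, summed to 4381 to 4662 CPM in control and 4137 to 5145 CPM under CD. Of these 7, CDH2 was higher (log2FC 0.74) and COL3A1 (-1.72), COL1A1 (-0.93) and COL1A2 (-0.37) were lower. The 6 adipocyte markers went from 54.1 to 63.0 CPM in control to 90.3 to 105 CPM under CD through LIPE (log2FC 1.13), with ADIPOQ and LEP at 0 reads in every library. Of 6 type II alveolar markers 5 were found, at 63.2 to 82.1 CPM in control and 88.4 to 134 CPM under CD. Nearly all of that was ABCA3, a lipid transporter (log2FC 0.70), with SFTPB and SFTPC at 0 and SFTPD and NAPSA near 0. The 5 endothelial markers summed to 206 to 221 CPM in control and 75.9 to 124 CPM under CD, a fall carried by TEK (log2FC -1.08), while VWF rose (3.38, on 5 reads in control and 56 under CD) and PECAM1 had 0 and 11 reads. CD68, a macrophage marker, rose from 5.45 ± 0.273 to 19.7 ± 2.75 CPM (SD, n = 3 each; log2FC 1.85, edgeR FDR 2.49e-05), with PTPRC at 0 reads in control and 1 under CD and LYZ at 0. The part of these shifts in the fatty acid enzymes was not tested.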

How the data were processed

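The authors deposited whole-number read counts per gene for 6 libraries (poly(A) selection, Nextera XT, Illumina NextSeq). Per the submitters' notes and the study's methods, reads were trimmed with fastp 0.20.1 and aligned with STAR 2.7.2a to a mink assembly, and differential expression was run in R 4.0.3 with DESeq2 1.30.1. The read counter and its strand setting are not given in the sources used here, so overlapping or antisense genes could share reads. The normalized tables were not used. Rows for unmapped, multimapped, ambiguous or unassigned reads were kept out of library sizes and held 29.3 to 47.2% of control and 31.1 to 41.4% of CD reads.

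The counts were analysed in R 4.3.3 with edgeR 4.0.16 (filterByExpr, minimum count 10 and total 15, TMM, robust quasi-likelihood test, condition as the only term), with Benjamini-Hochberg adjustment over all tested genes. Spreads used log2(CPM + 0.5). Single genes, ratios and shares were compared by exact two-sided permutation tests. The scripts were tested on simulated data. Alternatives were DESeq2 1.42.0, limma-voom 3.58.1, other scalings and filters, a replicate block, leaving out each library and, chosen after seeing the data, the unmapped share as a covariate.

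The members and lists were chosen with earlier results of these data known. All 9 members were named, every called gene of the related lists, a set of regulators whatever their call, and the lowest and highest mevalonate gene. Symbols were matched exactly, except 8 genes matched by their description. FADS1, MCAT, OLAH, MLX, STK11, ACSL6, KRT8, KRT18 and SFTPA1 had no match by symbol and were not analysed here. The remaining leukocyte markers are not reported here. Precision was taken from the spread between libraries.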

Additional observations from a re-analysis of the deposited data

How the results depend on the processing

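With 3 libraries a group, exact tests could not reach 0.05. The limma-voom quality weights were lowest for CD libraries 3 (0.227) and 1 (0.467), against 1.26 to 2.68 for the others. Of 144 member results under 16 alternatives, 138 kept their direction and side of the threshold. The exceptions were SCD and FASN (in the report) and ACACA, whose log2FC was 0.10 with limma-voom quality weights and -0.37 to 0.26 with 1 library left out (-0.50 to 0.25 as a difference of mean log2 CPM), lying above 0 without control library 3 (0.02) or CD library 3. Also reversed were SCAP (0.012, quality weights), PMVK (-0.31 to 0.10 with 1 library left out) and the ratio of ME1 to FASN (-0.36 to 0.033). None of these was called in the reported results, but without CD library 3 PMVK was called lower, so that 1 mevalonate gene was lower in place of 0. The causes were not tested.

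At an FDR of 0.01, 2006 genes were higher and 2036 lower. Of the 6 related lists, 12 genes were then higher and 6 lower, 12 were higher with the unmapped share as a covariate, and 17 were lower with quality weights. Leaving out 1 library gave 13 to 21 higher and 6 to 18 lower. Members called higher numbered 6 to 8 in those fits, 6 without control library 1 (2265 of 12343 tested genes) and 8 without CD library 3 (3616 of 12330). DESeq2 called 2858 genes higher and 2837 lower, and 7 members higher.

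The labels do not say whether same-numbered control and CD libraries belong together. Their deviations from the group means had correlations of -0.02, -0.40 and -0.20. With 3 libraries a group, these correlations cannot exclude a shared culture or batch. With a replicate block, 7 members were higher and 0 lower, and 2772 genes were higher and 2636 lower. The block ended the calls of ME3, HACD2, CYB5B, ACSL1 and SLC27A4.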
